A study of Mus musculus with 6 samples.

Results

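The liver genes described here are 38 genes of Kupffer cells, monocytes and macrophages, taken from the 26123 genes of the deposited table by symbol. They fall into 7 genes of resident Kupffer cells, 25 pan-macrophage genes, called shared here, and 6 genes of monocytes or of the macrophages found around liver scars. All 38 were in the table, and all 38 were among the 16492 genes that passed the filter on low counts.

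Kupffer cells are the macrophages that live in the liver sinusoids, where they clear bacteria, lipoproteins and old red cells from portal blood. They are kept alive by CSF1 receptor signalling and hold a gene programme set by the liver niche, in which the nuclear receptor LXR-alpha, NOTCH and BMP signals take part. When Kupffer cells are lost, monocytes drawn from the blood by CCR2 can enter the tissue and take on the programme in steps, so resident, shared and monocyte genes give different readings of the same compartment.

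The samples were livers of ICR mice, an outbred stock, with 3 livers labelled control and 3 labelled crizotinib, an inhibitor of the receptor kinases MET, ALK and ROS1. The series states a dose of 300 mg/kg, 7 days of adaptation and collection 1 week after dosing, but as worded it assigns crizotinib to the normal group. It also mentions saline at the same dose, and which group received which is not clear from it. Groups here follow the samples' treatment labels, and every direction given would turn if those labels were exchanged. The sources used here give no age, sex or route. The series states that 3 mice of each group were picked at random for sequencing, so each library is taken as 1 mouse. Whole liver RNA was sequenced as mRNA libraries and counted per gene.

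Libraries held 51123361 to 67947970 counts. Levels are given as CPM, counts scaled to a common library total with trimmed-mean (TMM) normalization, and as the authors' FPKM where levels of different genes are compared. The liver label held in all 6 libraries, where albumin (Alb) lay between 14072 and 55633 CPM. Mitochondrially encoded genes took 44.5% of control replicate 1 and 5.53% to 17.6% of the other 5 libraries. Crizotinib replicate 3 stood apart from its group. Across genes its log2 CPM correlated at r = 0.917 and 0.935 with crizotinib replicates 1 and 2 but at 0.943, 0.961 and 0.957 with the controls, and genes are not independent replicates.

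Most resident and shared macrophage genes had lower means in crizotinib livers, while Cd14 and Gpnmb of the monocyte or scar-associated group and Id3 of the shared group had higher means. Resident Marco (7.53 and 8.04 mean CPM in control and crizotinib livers) and shared Itgam (0.865 and 1.36) were also higher in the mean, with overlap between groups. Of the 38 genes 8 fell and 0 rose by edgeR's quasi-likelihood test, Benjamini-Hochberg adjusted over all genes at a threshold of 0.05 (adjusted p from 0.043 to 0.0469), against 0.249% of all 16492 genes called lower and 0.091% called higher. The 8 were Clec4f, Cd5l and Folr2 of the resident genes and Csf1r, Cd68, Aif1, Spi1 and Fcgr1 of the shared genes. At an unadjusted p under 0.05 there were 27 lower and 3 higher, where 7.25% and 8.06% of all genes were. In 25 of the 38 every crizotinib library lay below every control, which held for 10.3% of all genes tested, and in 2 every crizotinib library lay above, which held for 10.7%. A fitted fold change below 0 was found for 33 of the 38 and above 0 for 5, where 50% of all genes lay on each side. The median log2 fold change was -3.02 for the 7 resident genes, -1.75 for the 25 shared genes and -1.03 for the 6 monocyte or scar-associated genes, beside 0.00 over all genes. The 38 were chosen with earlier results of these data known, so an excess over these shares is description and no independent support. In whole tissue, fewer macrophages and less of these RNAs per macrophage cannot be told apart.

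The count of 8 depended on the test and on single libraries. DESeq2 called 22 of the 38 lower and 2 higher, Cd14 and Gpnmb, where it called 3.61% of genes lower and 3.12% higher. Without crizotinib replicate 3, edgeR called 20 lower and the same pair higher, where it called 4.72% of genes lower and 4.11% higher. Without any 1 of the other 5 libraries edgeR called 0 of the 38, with 24 to 26 lower at an unadjusted p under 0.05. In those fits 1490 to 2502 of 17015 to 17072 genes were under that p, both directions together. EdgeR called 0.0176% of all genes lower when control replicate 2, or replicate 1 or 2 of the crizotinib group, was left out. It called 0% when control replicate 1 or 3 was left out. Without both control replicate 1 and crizotinib replicate 3 it called 21 of the 38 lower and 2 higher, beside 5.52% and 4.77% of all genes.

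**Figure D1:**
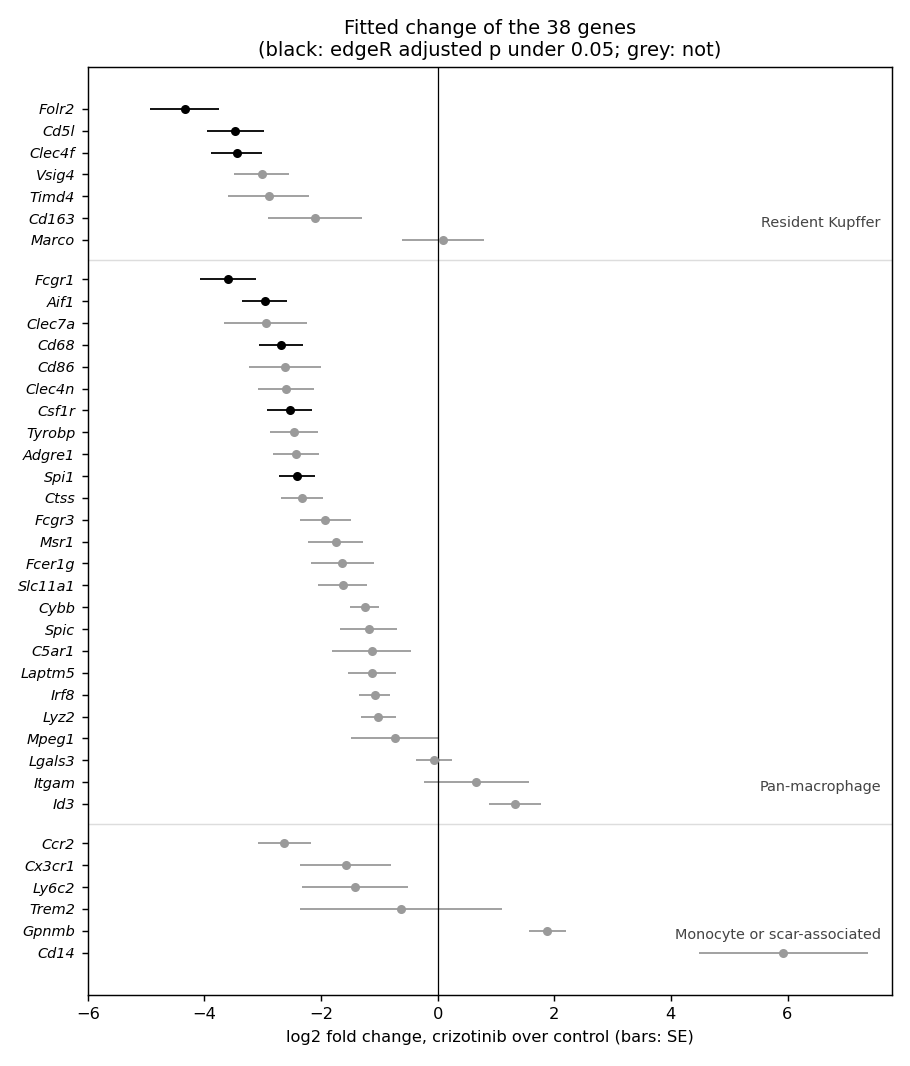
Fitted log2 fold change of each of the 38 genes, crizotinib over control, with its standard error as a bar, grouped by role; black points passed edgeR's test and grey points did not. Folr2 was lowest at -4.34 and Cd14 highest at 5.93, and 33 of the 38 points lie below 0.

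Of the 7 resident genes 3 fell, 6 had a fitted fold change below 0 and 5 had no overlap between groups. Positions are those of the deposited table, where the spans of 30 of the 38 genes equal annotation on GRCm38. Clec4f (ENSMUSG00000014542, chr6:83644542-83656187) encodes a C-type lectin that in mice is found on Kupffer cells and little else. Control replicates 1, 2 and 3 stood at 121, 82.7 and 127 CPM and crizotinib replicates 1, 2 and 3 at 7.14, 7.26 and 15.9 CPM. The highest crizotinib library was thus far under the lowest control, and Clec4f fell with a log2 fold change of -3.45 ± 0.43 (SE, n = 3 each; edgeR adjusted p = 0.043), or 10.9-fold. Cd5l (ENSMUSG00000015854, chr3:87357881-87371073) encodes a secreted scavenger protein of tissue macrophages. Its levels were 75.8, 109 and 115 CPM in the controls and 5.35, 6.03 and 15.6 CPM in crizotinib livers, with crizotinib replicate 3 again the highest of its group (log2 fold change -3.47 ± 0.49 SE, edgeR adjusted p = 0.0431).

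Folr2 (ENSMUSG00000032725, chr7:101839988-101857194), folate receptor beta, had the largest fitted fall of the 38, 20.3-fold. It had 4.25, 5.54 and 9.13 CPM in the controls and 0.135, 0.261 and 0.523 CPM in crizotinib livers (log2 fold change -4.34 ± 0.59 SE, edgeR adjusted p = 0.0431). The crizotinib values rest on 7, 14 and 33 counts. Folr2 overlaps the antisense gene Gm10602, which had 239, 115 and 118 counts in the controls and 38, 59 and 83 in crizotinib livers; the sources used here do not say whether counting was stranded, so reads of the pair cannot be told apart.

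Vsig4 encodes a complement receptor by which Kupffer cells capture opsonised particles. It had 14.7, 14.4 and 33.2 CPM in the controls and 2.45, 1.62 and 3.62 CPM in crizotinib livers, without overlap, and narrowly missed the threshold (log2 fold change -3.02 ± 0.47 SE, edgeR adjusted p = 0.0519). Timd4 encodes a phosphatidylserine receptor that marks long-lived, embryo-derived Kupffer cells. It had 9.68, 6.68 and 13.4 CPM against 1.39, 0.261 and 2.33 CPM, also without overlap (edgeR adjusted p = 0.143). Crizotinib replicate 2 was the lowest of its group for both genes.

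The remaining resident genes, both scavenger receptors, did not separate the groups. Cd163, the haemoglobin-haptoglobin receptor, had 7.57, 1.12 and 17.2 CPM in the controls and 2.41, 2.16 and 1.49 CPM in crizotinib livers. Control replicate 2 lay below all 3 crizotinib libraries, and control replicate 3 set most of the control mean (log2 fold change -2.10 ± 0.81 SE, edgeR adjusted p = 0.28). Marco, a receptor for bacteria and particles, had 2.66, 10.2 and 9.72 CPM in the controls and 16.5, 4.52 and 3.09 CPM in crizotinib livers. Its highest value was in crizotinib replicate 1 and its lowest in control replicate 1, and the fitted log2 fold change was 0.09 ± 0.71 (SE; edgeR adjusted p = 0.96). Without crizotinib replicate 1 the fitted value for Marco was -0.98.

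**Figure D2:**
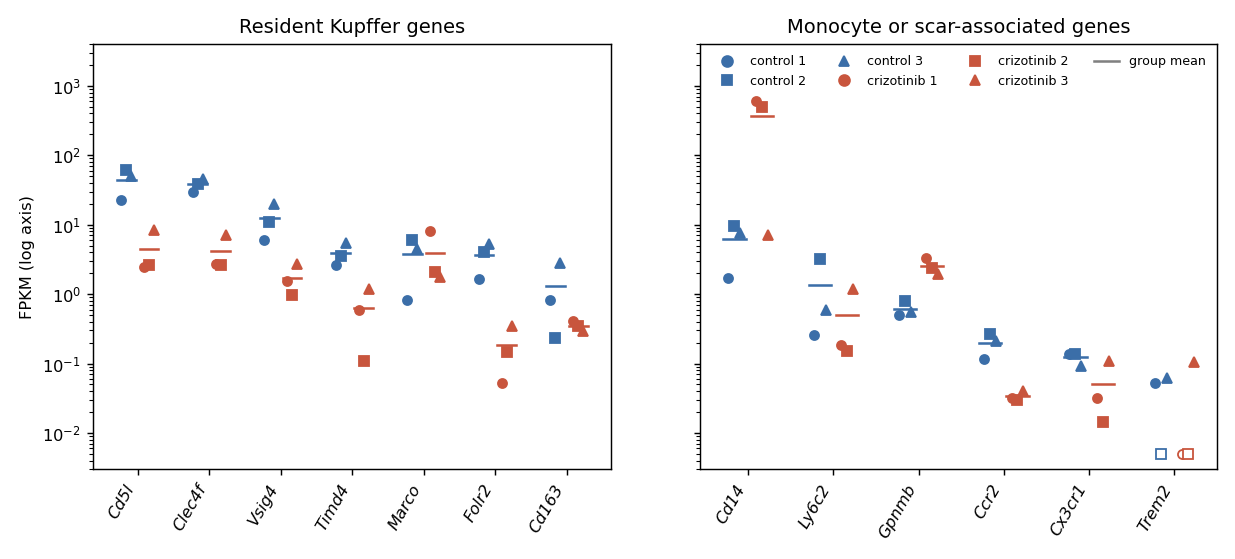
FPKM of the 7 resident Kupffer genes and the 6 monocyte or scar-associated genes in each library, on a log axis; points are libraries, lines are group means, and open points at the foot are libraries with 0 counts. Clec4f and Cd5l lie lower in all 3 crizotinib libraries, and Cd14 stands at 606 and 493 FPKM in crizotinib replicates 1 and 2 and at 7.06 FPKM in replicate 3.

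On the FPKM scale, which allows levels of different genes to be compared, Cd5l and Clec4f were the most abundant of the 38 in controls, at 44.6 ± 20.1 and 37.9 ± 8.37 FPKM (mean ± SD, n = 3). Among resident genes Vsig4 followed with 12.3 ± 7.14 FPKM. Timd4, Marco and Folr2, at 3.9, 3.79 and 3.66 FPKM, did not differ beyond their spread, and Cd163 was lowest at 1.29 ± 1.35 FPKM. In crizotinib livers Cd5l and Clec4f were at 4.51 ± 3.4 and 4.13 ± 2.55 FPKM and Marco at 3.95 ± 3.51 FPKM, and their order changed between libraries. The mean of Marco was carried by crizotinib replicate 1, with 8, 2.09 and 1.76 FPKM in replicates 1, 2 and 3. Replicate 3 was highest for Cd5l, at 2.45, 2.64 and 8.43 FPKM, and for Clec4f, at 2.69, 2.61 and 7.08 FPKM.

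Within a library, the ratio of 2 genes does not depend on library scaling; the pairs here were chosen after values were seen. The FPKM of Cd5l over that of Clec4f was 0.757, 1.6 and 1.09 in the controls and 0.911, 1.01 and 1.19 in crizotinib livers, so the groups overlapped. They overlapped as well for Vsig4 over Clec4f, at 0.201 to 0.434 against 0.368 to 0.57, and for Timd4 over Clec4f, at 0.0905 to 0.12 against 0.0408 to 0.22. The ratio of the shared gene Lyz2 to Clec4f was 0.258 to 0.303 in the controls and 0.951 to 2.61 in crizotinib livers. For Marco over Clec4f, the one resident pair of those computed that did not overlap, it was 0.0279 to 0.158 against 0.248 to 2.97.

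Promoter sequence is shown for 4 of the genes that fell, those with the smallest p among genes that had a window clear of annotated exons, to set beside them the short core that PU.1, the factor encoded by Spi1, prefers. The windows are RefSeq promoters on GRCm38.p6, minus strand, printed 5′ to 3′ and cut to the bases before the first annotated start. Capitals mark GAGGAA or its reverse complement TTCCTC, the only motif searched, on both strands.
Clec4f (chr6:83656188-83656366): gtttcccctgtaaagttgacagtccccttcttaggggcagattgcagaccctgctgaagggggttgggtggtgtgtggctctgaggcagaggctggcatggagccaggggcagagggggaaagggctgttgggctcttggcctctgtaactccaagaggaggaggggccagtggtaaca
Fcgr1 (chr3:96293970-96294219): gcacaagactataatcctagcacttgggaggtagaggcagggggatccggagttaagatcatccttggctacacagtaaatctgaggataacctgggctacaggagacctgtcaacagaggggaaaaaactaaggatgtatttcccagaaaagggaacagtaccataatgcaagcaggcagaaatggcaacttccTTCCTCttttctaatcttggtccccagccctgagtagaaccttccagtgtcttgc
Folr2 (chr7:101857195-101857440): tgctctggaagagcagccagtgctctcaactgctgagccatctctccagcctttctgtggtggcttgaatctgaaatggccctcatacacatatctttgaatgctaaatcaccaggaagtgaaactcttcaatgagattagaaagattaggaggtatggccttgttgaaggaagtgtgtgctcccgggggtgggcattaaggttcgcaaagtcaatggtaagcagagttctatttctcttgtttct
Cd68 (chr11:69666171-69666420): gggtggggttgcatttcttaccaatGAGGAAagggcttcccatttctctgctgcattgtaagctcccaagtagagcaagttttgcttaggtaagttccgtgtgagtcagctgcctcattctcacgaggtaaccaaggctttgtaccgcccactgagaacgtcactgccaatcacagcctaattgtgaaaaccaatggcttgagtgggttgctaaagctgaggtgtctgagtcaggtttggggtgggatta
The core was found at position -55 from the RefSeq start of Fcgr1 and at -225 from that of Cd68, and not in the printed windows of Clec4f or Folr2. Over the 250 bases before the start it was present for 15 of the 30 member genes with a window and for 25.9% of 27025 genes with a window. A match describes letters only and is no evidence of binding. Csf1r, Spi1, Cd14, Adgre1, Cd86, Clec4n, Msr1 and Tyrobp had no window in the table, and that of Aif1 was not shown because it overlaps an exon.

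Of the 25 genes of the shared list 5 fell, 23 had a fitted fold change below 0 and 18 lay lower in crizotinib livers without overlap. The list also holds Itgam, which is low on Kupffer cells, and Id3, which other liver cells also make. Csf1r, the receptor for CSF1 and IL-34 on which macrophage survival depends, had 51.7, 27.0 and 50.6 CPM in the controls and 10.1, 5.23 and 6.98 CPM in crizotinib livers. Its lowest control was well above its highest crizotinib library, and it fell 5.81-fold (log2 fold change -2.54 ± 0.38 SE, edgeR adjusted p = 0.0469). Spi1 (ENSMUSG00000002111, chr2:91082390-91114366), which encodes the lineage factor PU.1, had 12.3, 7.42 and 10.2 CPM in the controls and a tight 1.79, 1.75 and 2.03 CPM in crizotinib livers (log2 fold change -2.42 ± 0.31 SE, edgeR adjusted p = 0.043).

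The other genes that fell encode surface or internal macrophage proteins. Cd68 (ENSMUSG00000018774, chr11:69664213-69666153), a lysosomal membrane protein, had 15.3, 13.6 and 13.7 CPM in the controls and 2.01, 1.3 and 3.28 CPM in crizotinib livers, a 6.45-fold fall (edgeR adjusted p = 0.0431). Aif1 (ENSMUSG00000024397, chr17:35170991-35173278), the actin-binding protein IBA1, had 5.2, 6.32 and 4.4 CPM against 0.656, 0.484 and 0.888 CPM (log2 fold change -2.97, edgeR adjusted p = 0.043). Fcgr1 (ENSMUSG00000015947, chr3:96282909-96293969) encodes the high-affinity IgG receptor and fell most among the shared genes. It had 5.36, 7.35 and 4.56 CPM in the controls and 0.521, 0.242 and 0.666 CPM in crizotinib livers, a 12-fold fall (edgeR adjusted p = 0.0431).

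Abundant shared genes that did not pass the test differed in how far apart the groups lay. Ctss, the lysosomal protease cathepsin S, had 18.5, 37.9 and 39.2 CPM in the controls and 8.01, 5.66 and 5.46 CPM in crizotinib livers (log2 fold change -2.32 ± 0.36 SE, edgeR adjusted p = 0.054). Tyrobp encodes DAP12, the signalling adaptor of TREM2 and related receptors, and had 7.33, 5.95 and 7.83 CPM against 1.68, 0.67 and 1.47 CPM (edgeR adjusted p = 0.0646). Both were without overlap, and Ctss shares its span with the pseudogene Hmgb1-ps5. Lyz2, lysozyme of macrophages and granulocytes, had 19.6, 11.8 and 17.5 CPM in the controls and 9.92, 6.2 and 8.06 CPM in crizotinib livers, a smaller gap (log2 fold change -1.02 ± 0.30 SE, edgeR adjusted p = 0.187). Lyz2 has a near-identical copy, Lyz1, so its reads can be assigned to the wrong gene.

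Among these abundant genes 3 did not lie lower. Mpeg1 encodes perforin-2, a pore-forming protein of phagocytes, and had 36.1, 295 and 48.2 CPM in the controls and 78.6, 89.2 and 59.4 CPM in crizotinib livers. Control replicate 2 alone held the high value, and the fitted log2 fold change of -0.74 became 0.82 without it. Lgals3, galectin-3, was level at 9.3, 8.27 and 5.77 CPM against 8.8, 7.75 and 5.63 CPM. Its fitted log2 fold change was -0.07 ± 0.31 (SE; edgeR adjusted p = 0.926). Id3 encodes a helix-loop-helix inhibitor that takes part in Kupffer cell development and is also made by other liver cells. It had 35.5, 18.8 and 30.4 CPM in the controls and 53.9, 42.2 and 117 CPM in crizotinib livers, so every crizotinib library lay above the controls (log2 fold change 1.33 ± 0.45 SE, edgeR adjusted p = 0.222).

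**Figure D3:**
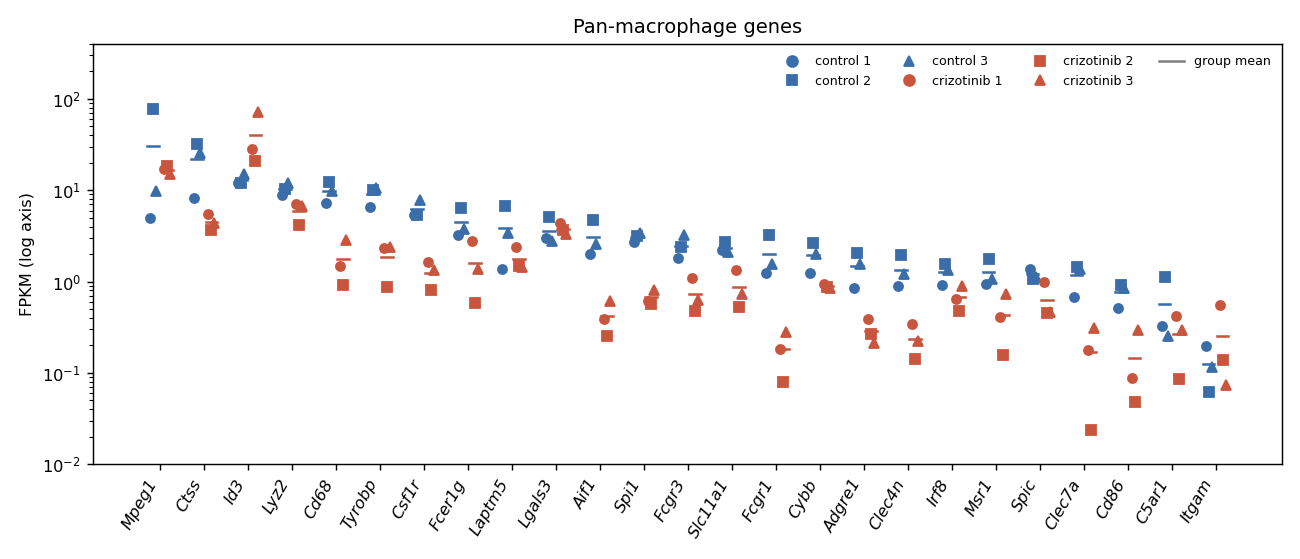
FPKM of the 25 genes of the shared list in each library, on a log axis, ordered by control mean. Points are libraries and lines are group means. Cd68, Csf1r, Aif1, Spi1 and Fcgr1 lie lower in all 3 crizotinib libraries, while Id3 lies higher and Mpeg1 stands at 77.5 FPKM in control replicate 2 alone.

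The other 14 shared genes had control means of 0.124 to 4.49 FPKM and fitted log2 fold changes of -2.95 to 0.66, and none passed edgeR's test (adjusted p from 0.0583 to 0.761); 12 were lower at an unadjusted p under 0.05. In 10 of them the crizotinib libraries lay below all controls. They were the F4/80 gene Adgre1, the NADPH oxidase subunit Cybb, the Fc receptor gamma chain Fcer1g, the scavenger receptor Msr1, the lectins Clec4n and Clec7a, the IgG receptor Fcgr3, the transcription factor Irf8, the costimulator Cd86 and the phagosomal metal transporter Slc11a1. Adgre1 had the smallest p of these, at 5.36 ± 0.675 and 0.997 ± 0.368 CPM in control and crizotinib livers (edgeR adjusted p = 0.0583). The lysosomal protein gene Laptm5, the haem-responsive factor Spic, the integrin gene Itgam and the complement receptor C5ar1 overlapped between groups. Itgam, which encodes CD11b, is low on Kupffer cells and high on monocytes and neutrophils. Per length it was the lowest of the 25 in controls, at 0.124 FPKM, and it had 1.66, 0.275 and 0.659 CPM in the controls against 2.95, 0.782 and 0.349 CPM in crizotinib livers.

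The 6 monocyte or scar-associated genes did not share a direction. None passed edgeR's test; at an unadjusted p under 0.05 Ccr2 was lower and Gpnmb and Cd14 were higher, and DESeq2 called the same 3. Ccr2, the receptor by which monocytes leave the marrow and enter tissue, had 1.33, 1.62 and 1.6 CPM in the controls and 0.232, 0.242 and 0.254 CPM in crizotinib livers, with little spread in either group (log2 fold change -2.63 ± 0.46 SE, edgeR adjusted p = 0.0727). Ly6c2, a surface antigen of classical monocytes with a near-identical copy in Ly6c1, had 1.2, 7.68 and 1.83 CPM against 0.56, 0.484 and 2.93 CPM. The groups overlapped, with control replicate 2 highest (edgeR adjusted p = 0.498).

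Cx3cr1, the fractalkine receptor of patrolling monocytes, had 1.04, 0.55 and 0.461 CPM in the controls and 0.154, 0.0745 and 0.444 CPM in crizotinib livers (edgeR adjusted p = 0.382). Crizotinib replicate 3 was just under the lowest control. The annotated span of Cx3cr1 overlaps other genes, among them Csrnp1, with 151, 371 and 292 counts in the controls and 1959, 1182 and 376 in crizotinib livers. Trem2, a lipid receptor of scar-associated macrophages, was barely detected, with 20, 0 and 21 counts in the controls and 0, 0 and 31 in crizotinib livers. A count of 0 allows up to 3 counts, or 0.0459 to 0.0579 CPM in those 3 libraries, for counting error only.

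Gpnmb (ENSMUSG00000029816, chr6:49036546-49070929), a lysosome-related glycoprotein of lipid-laden macrophages, was the member of this group with the clearest separation upward. It had 5.51, 4.54 and 4.04 CPM in the controls and 22.8, 17.3 and 11.7 CPM in crizotinib livers, without overlap (log2 fold change 1.88 ± 0.32 SE, edgeR adjusted p = 0.0661). The FPKM of Gpnmb over that of Cd68 was 0.0564 to 0.0693 in the controls and 2.22, 2.59 and 0.686 in crizotinib replicates 1, 2 and 3. Cd14 encodes the lipopolysaccharide co-receptor of monocytes and macrophages, which hepatocytes also make in the acute-phase response. Its controls stood at 5.01, 14.5 and 14.7 CPM and its crizotinib libraries at 1124, 960 and 11.1 CPM. Crizotinib replicates 1 and 2 stood at 606 and 493 FPKM, above every other value of the 38 genes, while crizotinib replicate 3 lay within the control range (log2 fold change 5.93 ± 1.45 SE, edgeR adjusted p = 0.144). Without crizotinib replicate 3 the fitted value was 6.50 (edgeR adjusted p = 0.00326). Cell sources of Cd14 and Gpnmb were not tested. The acute-phase partner of CD14, Lbp, had 51, 262 and 62 CPM in the controls and 931, 980 and 162 CPM in crizotinib livers.

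Within the crizotinib group the libraries ranked differently by role. Crizotinib replicate 3 was the highest of its group for 5 of the 7 resident genes, and crizotinib replicate 1 for 15 of the 25 shared genes. Crizotinib replicate 2 was the lowest for 21 of all 38 genes. Summed CPM of the 7 resident genes was 236, 230 and 325 in the controls and 35.4, 22.1 and 42.6 in crizotinib livers, without overlap. For the 25 shared genes it was 307, 533 and 318 against 220, 186 and 240, a sum in which Mpeg1 and Id3 take large shares.

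Further genes of macrophage function were read from lists that were, like the 38, chosen with earlier results of these data known. For the counts below, 7.25% of all genes were lower and 8.06% higher at an unadjusted p under 0.05 by edgeR. DESeq2 called 3.61% of all genes lower and 3.12% higher. The complement list was the one with calls. All 5 of its genes, C1qa, C1qb, C1qc, the properdin gene Cfp and the anaphylatoxin receptor C3ar1, lay lower without overlap, and 3 fell by edgeR's test. Over all genes tested 10.3% lay lower without overlap and edgeR called 0.249% lower. C1qb, a chain of the complement initiator C1q that macrophages secrete, had 34.2, 37 and 42.9 CPM in the controls and 6.58, 5.68 and 6.93 CPM in crizotinib livers (edgeR adjusted p = 0.0345). C1qc, its partner chain, had 27.2, 39.7 and 44.4 CPM against 4.9, 4.36 and 6.87 CPM (edgeR adjusted p = 0.0361). Cfp had 37.1, 19.2 and 28.9 CPM against 6.79, 3.39 and 5.2 CPM (edgeR adjusted p = 0.049). The median log2 fold change of the list was -2.50.

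Growth factors and niche ligands had a median log2 fold change of -1.43. Of 9 growth factors and niche signals 7 were tested and 0 passed edgeR's test, while 4 were lower at an unadjusted p under 0.05 and DESeq2 called 1 lower. Gdf2, the stellate cell ligand BMP9, had 10.6, 10.6 and 15.2 CPM in the controls and 3.78, 3.15 and 2.32 CPM in crizotinib livers (edgeR adjusted p = 0.0583). The NOTCH ligand gene Dll4 had 3.77, 1.07 and 1.81 CPM against 0.907, 0.447 and 0.555 CPM. Csf1, the growth factor bound by the Csf1r product, overlapped between groups, at 18, 14.1 and 9.95 CPM against 12.8, 13.6 and 34.3 CPM, while the second ligand gene Il34 had 1.42, 0.887 and 2.16 CPM against 0.56, 0.577 and 0.349 CPM.

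Transcription factors of Kupffer identity other than those among the 38 had no shared direction and a median log2 fold change of 0.31. Of 11, edgeR called 0, with 1 higher and 2 lower at an unadjusted p under 0.05, and DESeq2 called 1 in each direction; 6 had a fitted fold change above 0. Nr1h3, which encodes LXR-alpha and is also made by hepatocytes, was level at 57.6, 85.8 and 57.9 CPM against 48.2, 61.7 and 72.5 CPM. Tfec, a macrophage factor of the MiT family, had 3.19, 1.38 and 1.91 CPM in the controls and 0.463, 0.261 and 0.634 CPM in crizotinib livers (log2 fold change -2.24 ± 0.54 SE, edgeR adjusted p = 0.143). Cebpb, an inflammatory factor of many cell types, stood at 81.8 to 136 CPM in the controls and in crizotinib replicate 3 and at 325 and 326 CPM in the other 2 crizotinib libraries.

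The 12 tested genes of the further Kupffer surface list all lay below 0 in the fit, and their median was -1.51. EdgeR called 0 of them, 8 were lower at an unadjusted p under 0.05 and DESeq2 called 8 lower. Lilra5, a leukocyte immunoglobulin-like receptor, had 4.7, 3.78 and 7.28 CPM against 0.675, 0.279 and 0.777 CPM (edgeR adjusted p = 0.0575). Siglec1, the sialic acid receptor CD169, had 6.05, 12.3 and 8.06 CPM against 0.733, 0.354 and 1.95 CPM. The pan-leukocyte gene Ptprc, which encodes CD45, overlapped between groups at 10.9, 15.2 and 13.1 CPM against 12.2, 8.38 and 6.26 CPM.

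Downstream signalling and effector lists had medians below 0. Genes of kinases and adaptors that act under ITAM receptors had a median log2 fold change of -0.69, with 0 of 10 past edgeR's test, 4 lower at an unadjusted p under 0.05 and 2 called lower by DESeq2; Lcp2, the adaptor SLP-76, had 4.94, 3.23 and 3.64 CPM against 1.49, 0.652 and 1.55 CPM. The NADPH oxidase partners of Cybb had a median of -1.14, with 0 of 5 past edgeR's test, 3 lower at an unadjusted p under 0.05 and 2 by DESeq2. The membrane partner gene Cyba had 9.37, 11.1 and 8.62 CPM against 4.61, 3.3 and 2.93 CPM (edgeR adjusted p = 0.107), and Rac2, a leukocyte GTPase, had 14.5, 15.8 and 13.3 CPM against 7.35, 5.08 and 3.35 CPM. Further Fc receptor genes had a median of -2.03, with 0 of 3 past edgeR's test, 2 lower at an unadjusted p under 0.05 and 1 by DESeq2. Fcgr4 had 3.12, 9.24 and 3.74 CPM against 1.79, 0.912 and 0.92 CPM, without overlap, while the inhibitory receptor gene Fcgr2b overlapped between groups.

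The list of Toll-like receptors and their adaptors and partners had a median log2 fold change of -0.53. EdgeR called 0 of its 11 genes and DESeq2 called 3 in each direction. At an unadjusted p under 0.05 by edgeR, the receptor gene Tlr2, the adaptor gene Myd88 and Lbp were higher, and the receptor genes Tlr1, Tlr6, Tlr7 and Tlr13 were lower. Every receptor gene of the list other than Tlr2 had a fitted value below 0. Tlr2, a receptor for bacterial lipopeptides found on many cell types, had 2.83, 4.13 and 2.45 CPM in the controls and 17.5, 28.8 and 5.19 CPM in crizotinib livers. Tlr13, a receptor for bacterial ribosomal RNA, had 4.23, 4.34 and 4.51 CPM against 1.83, 0.726 and 1.62 CPM. Each was without overlap, in opposite directions.

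Chemokines that draw monocytes were low in all libraries, with a median log2 fold change of 0.88. Of 6 genes 4 were tested, edgeR and DESeq2 called 0, and 2 were higher at an unadjusted p under 0.05. Ccl2, the main CCR2 ligand, had 0.266, 2.49 and 1.93 CPM in the controls and 6.14, 4.69 and 3.96 CPM in crizotinib livers (edgeR adjusted p = 0.31). Ccl7 had 0.0886, 0.52 and 0.346 CPM against 1.64, 1.02 and 0.698 CPM. Ccl2 and Ccl7 were higher without overlap, while Ccr2 was lower without overlap. The list did not share a direction. Ccl3, which was not tested, was lower without overlap, at 2.57, 0.352 and 0.165 CPM against 0, 0.112 and 0 CPM. Ccl4 overlapped between groups, with a fitted log2 fold change of -1.26.

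Other genes linked to scar-associated macrophages, most of which hepatocytes and other cells also make, were mixed, with a median log2 fold change of 0.19. EdgeR called 0 of 10, with 3 higher and 2 lower at an unadjusted p under 0.05, and DESeq2 called 3 higher and 1 lower. Cd36, a fatty acid and lipoprotein receptor, had 3.61, 2.81 and 3.99 CPM in the controls and 57.4, 51.5 and 10.7 CPM in crizotinib livers (log2 fold change 3.52 ± 0.60 SE, edgeR adjusted p = 0.0679). The tetraspanin genes Cd9 and Cd63 were also higher without overlap, with log2 fold changes of 1.82 and 1.51. Fabp5, a fatty acid-binding protein gene, was lower without overlap, at 48.2, 40 and 84.3 CPM against 21.8, 13.1 and 27.8 CPM (log2 fold change -1.46), and so was the lysosomal protease gene Ctsb, with a log2 fold change of -0.87. Crizotinib replicate 3 had the lowest value of its group for Cd36, Cd9 and Cd63.

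Marker lists of several other cell types also had median log2 fold changes below 0, and their part in the macrophage results was not tested. The list for T and NK cells had a median of -2.09 (log2 fold change), with 8 of 11 lower at an unadjusted p under 0.05 and summed CPM of 10.1 to 17.7 in the controls and 2.79 to 4.09 in crizotinib livers; Cd3d was at 0 in crizotinib replicates 2 and 3. Stellate cell markers had a median of -1.69, with 7 of 10 lower and sums of 191 to 345 against 95.3 to 143. For sinusoidal endothelial markers the median was -1.11, with 5 of 10 lower. Their sums overlapped, at 80.1 to 187 against 46.9 to 82.1, and the 187 was control replicate 1. Dendritic cell markers had a median of -1.24, with 3 of 7 lower and sums of 6.34 to 9.86 against 3.17 to 4.52.

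Erythroid genes had a median of -2.63, with 5 of 5 lower and sums of 257 to 993 against 31.1 to 196. Control replicate 1 held the 993, and control replicates 2 and 3 stood at 287 and 257. None of these markers passed edgeR's test; the smallest adjusted p were 0.106 for Ccl5, 0.0502 for the stellate gene Colec11, 0.106 for Cdh5, 0.246 for Zbtb46 and 0.148 for Alas2. DESeq2 called 5 T and NK, 6 stellate, 2 endothelial, 0 dendritic and 3 erythroid genes lower.

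B cell markers had a median of 0.22, with sums of 14.6 to 102 in the controls and 35.7 to 107 in crizotinib livers, and 0 of 6 at an unadjusted p under 0.05 by edgeR or called by DESeq2. Neutrophil markers had a median of 1.24, with 3 of 10 higher at an unadjusted p under 0.05 and sums of 4.37 to 10.5 against 6.87 to 31.1; Ly6g was at 0 in 4 libraries, and DESeq2 called 1 higher. Cholangiocyte markers had a median of 0.77, with 1 of 5 higher by edgeR's unadjusted p and by DESeq2, and sums of 55 to 103 against 95 to 181. The 6 hepatocyte genes, of which Alb dominates the sum, took 59146 to 78700 CPM in the controls and a lower 24932 to 38263 CPM in crizotinib livers, without overlap. Alb and Apoa1 were lower without overlap, and the other 4 overlapped; the median was -0.22, 0 of 6 passed an unadjusted p under 0.05 by edgeR, and DESeq2 called 1 lower. The smallest adjusted p by edgeR were 0.616 for Ms4a1, 0.246 for S100a9, 0.148 for Sox9 and 0.359 for Alb.

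**Figure D4:**
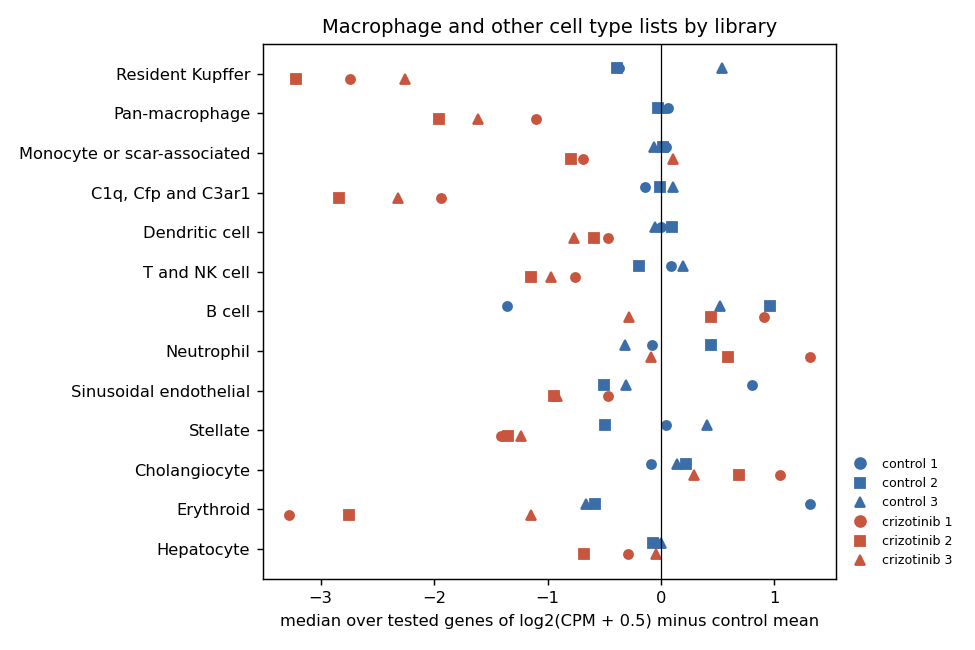
Median deviation of each gene list from the control mean, in log2(CPM + 0.5) units, with 1 point per library. Resident Kupffer genes lie at -2.74, -3.22 and -2.26 in crizotinib replicates 1, 2 and 3 and the T and NK list at -0.76, -1.15 and -0.97, whereas the B cell list overlaps between groups. The offset of 0.5 CPM is about as large as the level of many T and NK genes and shrinks their deviations, so lists of different abundance are not comparable on this axis; the fitted medians were -3.02 and -2.09.

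The count of 8 genes called among the 38 also moved with the normalization and the scale of the values. With DESeq2's size factors in edgeR 10 of the 38 were called lower, beside 0.273% of all genes, and with mitochondrially encoded genes removed also 10, beside 0.271%. No filter on low counts gave 8, beside 0.161%. Limma on log2(FPKM + 0.1) gave 4, beside 0.34%, and on log2(FPKM + 1) it gave 1, beside 0.218%. Limma voom, weighting each library by its quality, gave 25 lower and 2 higher, beside 10.2% and 9.34% of all genes.

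**Figure D5:**
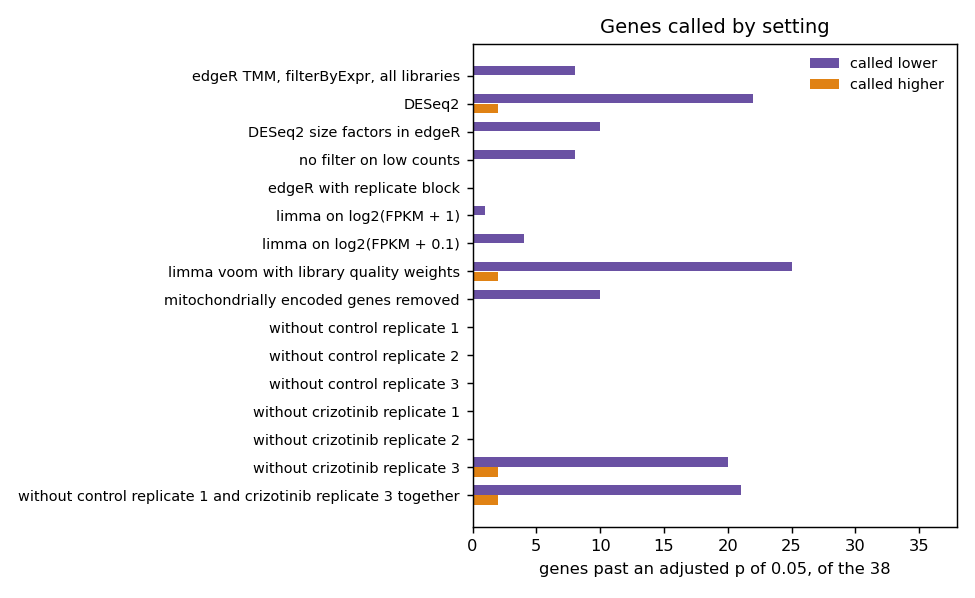
Number of the 38 genes past an adjusted p of 0.05, lower (purple bars) and higher (orange bars) in crizotinib livers, under each of 16 settings on a linear axis from 0. The count of lower genes runs from 0, with the replicate block and in 5 of the 6 fits that leave out 1 library, to 25 with limma voom.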

How the data were processed

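Liver mRNA-seq of 3 control and 3 crizotinib libraries was analysed. Per the file headers, the authors deposited a read count and an FPKM value per gene and library; counts were whole and not normalized, and FPKM is scaled by gene length and library total. Per the labels' protocols, 1.3 µg of RNA entered each library. The sources used here name no aligner, annotation or strand setting. Start and end of 89.65% of matched genes, and of 30 of the 38, equalled those of GENCODE M21 (GRCm38).

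Counts were filtered with filterByExpr (minimum count 10, minimum total 15), TMM-normalized and tested with edgeR 4.0.16 (quasi-likelihood, two-sided, Benjamini-Hochberg over 16492 genes, threshold 0.05) in R 4.3.3; the SE of a fold change is its size over the square root of F. The edgeR, DESeq2 and limma steps were run on simulated counts in which no library stood apart. That run therefore does not cover a case such as crizotinib replicate 3. Members and lists were chosen with earlier results of these data known. All 38 genes are named. Values by library are given for the resident and monocyte or scar-associated genes, shared genes that passed, and the 8 shared genes with the highest mean FPKM. From each other list, those that passed and up to 2 with the smallest p were to be named; further examples were chosen after values were seen. Some list genes are not reported here. Alternatives used DESeq2 1.42.0 and limma 3.58.1. Protein sequences were not used here.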

Additional observations from a re-analysis of the deposited data

How the results depend on the processing

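All 33 genes with a fitted fold change below 0 in the report, other than Mpeg1 and Lgals3, kept that direction in the 15 alternatives or, for Trem2, in the 14 that could fit it. Of 569 gene and setting pairs 15 changed direction, in 4 genes that no setting called. Marco was -0.24 with the replicate block, -0.47 with limma voom and library quality weights, -0.33 without control replicate 1 and -0.98 without crizotinib replicate 1, and ranged from -0.98 to 0.46 over the 6 fits that leave out 1 library. Mpeg1 was 0.04 and 0.09 with limma on log2(FPKM + 1) and log2(FPKM + 0.1), 0.20 with limma voom and 0.82 without control replicate 2 (range -1.20 to 0.82). Itgam was -0.60 without crizotinib replicate 1 (range -0.60 to 1.52). Lgals3 was 0.09, 0.12 and 0.24 with these 3 limma settings, 0.06 when control replicate 1 was left out, 0.07 when crizotinib replicate 3 was and 0.21 when both were (range -0.26 to 0.07 with 1 left out). The cause of these changes was not tested.

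DESeq2 called 512 genes higher and 593 lower, among them 2 of the 38 higher and 22 lower (5 resident, 16 shared and 1 monocyte or scar-associated). Limma voom with library quality weights called 1540 higher and 1677 lower, with 2 and 25 of the 38 (5, 19 and 1 lower by role), and medians of -2.27 for all 38, -3.88, -2.19 and -2.14 by role. Without both control replicate 1 and crizotinib replicate 3 there were 796 and 922, with 2 and 21 (5, 14 and 2), and medians of -2.18 for all 38, -3.63 for resident and -2.15 for monocyte or scar-associated genes. Limma on log2(FPKM + 1) called 1 of the 38, Clec4f, among 1 resident and 0 shared, with medians of -0.69, -1.90, -0.86 and -0.05; a pseudocount of that size exceeds the level of many of the genes. With a pseudocount of 0.1 it called 27 genes higher and 4 of the 38 lower (3 resident, 1 shared), with medians of -1.44 for all 38 and -0.34 for monocyte or scar-associated genes. The DESeq2 size factors in edgeR and the removal of mitochondrially encoded genes each called 10 of the 38 lower, the 8 with Ctss and Vsig4, and no filter called the same 8.

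Leaving out 1 library moved the genes called higher from 0 to 700 and lower from 0 to 804. For the 38 it gave 0 to 2 higher and 0 to 20 lower (0 to 5 resident, 0 to 14 shared and 0 to 1 monocyte or scar-associated), with medians from -2.30 to -1.57, -3.61 to -2.62, -2.37 to -1.42 and -2.63 to -0.54. With the replicate block edgeR called 0 genes, 0 of them among the 38 (0 resident and 0 shared). At an unadjusted p under 0.05 in that fit 25 of the 38 were lower and 2 higher. Over all genes 2068 of 16492 were under that p, both directions together. The median of monocyte or scar-associated genes was -1.57 with the block. Same-numbered libraries correlated in their deviations from the group means at r = -0.149, 0.164 and -0.09, and other pairs at -0.216 to 0.242. Deviations within a group of 3 balance out, so these values cannot decide whether the numbers pair the libraries. With 3 livers a group, a common biological coefficient of variation of 0.470 and few counts for Trem2, Folr2 and Clec7a, modest changes of single genes could not be resolved.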

Other observations

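Control replicate 2 held the highest value of several genes, noted after the values were seen, though some crizotinib libraries also lay above the other controls. Mpeg1 had 295 CPM there, 36.1 and 48.2 CPM in the other controls and 78.6, 89.2 and 59.4 CPM in crizotinib replicates 1, 2 and 3. Irf7, an interferon-induced transcription factor, had 477 CPM there against 69.5 and 65.9 CPM, with 17.8, 114 and 140 CPM in crizotinib livers. Il18bp, the secreted inhibitor of interleukin-18, had 67.1 CPM there against 13.9 and 14.3 CPM, with 14.9, 40.2 and 17.3 CPM in crizotinib livers. Ly6c2 had 7.68 CPM there against 1.2 and 1.83 CPM, with 0.56, 0.484 and 2.93 CPM in crizotinib livers. The resident genes Clec4f and Cd5l did not share this pattern: at 82.7 and 109 CPM, control replicate 2 was the lowest control for Clec4f and lay between the others for Cd5l.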
